A study of Homo sapiens with 12 samples.

Results

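The genes described here mark epithelial or mesenchymal identity: the epithelial adhesion genes CDH1, EPCAM and CLDN7, the epithelial filament genes KRT8 and KRT18, the mesenchymal genes CDH2 and VIM, the repressors SNAI1 and ZEB1, and the cadherin-binding catenin gene CTNND1. Members were taken by name, and a member's probe sets were those whose single gene symbol in the platform annotation was that name. Of the 10 listed genes, 9 had such probe sets, 310 in all, out of 22036 genes and 672085 probe sets with 1 symbol on the array. No probe set carried CTNND1 as its only symbol, so that gene had no value of its own.

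RNA of 293T cells (an established line from human embryonic kidney, with SV40 large T) was measured on 12 arrays, 3 for each of 4 groups. Every group, controls included, was infected with a lentivirus carrying a short hairpin RNA, selected from 48 hours after infection with puromycin at 1 ug/mL, and harvested after 10 days of selection. Control cells carried the non-target hairpin SHC016, and the other groups carried 1 of 3 hairpins directed at the mRNA of RBFOX2, a protein that binds RNA and regulates splicing: TRCN0000074544 (shRNA1), TRCN0000074546 (shRNA2) or TRCN0000074543 (shRNA3). The array has separate probe sets for exons and for exon-exon junctions, and each value is a log2 signal.

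Epithelial cells hold together through E-cadherin and tight junctions and build filaments of paired keratins. Mesenchymal cells typically have N-cadherin and vimentin filaments instead. The zinc finger proteins SNAI1 and ZEB1 repress E-cadherin and other epithelial genes through E-box sequences in their promoters, and the switch between both states is called the epithelial-mesenchymal transition (EMT). The 293T line stems from kidney but also expresses neuronal filament genes, so it is neither a typical epithelium nor a typical mesenchyme.

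The E-box bound by SNAI1 and ZEB1 is read as CACCTG on one strand and CAGGTG on the other, and it was searched in the RefSeq promoters (GRCh38.p14, 300 bases around a gene's start) as CACCTG or CAGGTG. Promoters were listed for 5 of the members: CLDN7, KRT8, CDH2, VIM and ZEB1. The promoter of the second listed CLDN7 start (chr17:7262429-7262728, minus strand) is shown because it holds the most E-boxes of these and belongs to a gene that rose with 1 hairpin. Capitals mark the E-boxes.
CLDN7: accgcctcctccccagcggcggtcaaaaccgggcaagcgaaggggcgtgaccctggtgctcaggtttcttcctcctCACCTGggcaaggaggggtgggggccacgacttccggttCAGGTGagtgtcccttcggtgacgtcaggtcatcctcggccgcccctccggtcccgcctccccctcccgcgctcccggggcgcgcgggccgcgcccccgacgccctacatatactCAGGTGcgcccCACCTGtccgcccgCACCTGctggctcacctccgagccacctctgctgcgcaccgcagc

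This stretch held 5 E-boxes, and 33 of 35116 RefSeq promoters (0.094%) held as many. An E-box of either reading stood in 7231 promoters (20.59%). The other listed CLDN7 start had 0, and so did all listed starts of KRT8, CDH2 and VIM. ZEB1, which encodes a protein that binds this motif, had 7 listed starts. One of them held 1 E-box (chr10:31318348-31318377, plus strand) and another held 3, of which 1 is shown here (chr10:31319119-31319148, plus strand), with capitals again marking the motif. These matches describe letters and show no binding.
ZEB1 start with 1 E-box: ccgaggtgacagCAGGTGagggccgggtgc
ZEB1 start with 3 E-boxes: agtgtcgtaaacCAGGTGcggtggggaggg

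The targeted gene was checked first. RBFOX2 lay between 9.58 and 9.59 in control, between 8.51 and 8.59 for shRNA1, between 9.10 and 9.16 for shRNA2, and between 8.82 and 8.85 for shRNA3, which left 48.7%, 72.6% and 59.7% of the control signal. Array medians lay between 7.24 and 7.27, and no 2 arrays held identical values. All 8 markers listed for this line had a gene value, and the neuronal filament genes NEFL (9.77 to 10.17 over group means), NEFM (9.29 to 9.95) and INA (9.18 to 9.67) lay far above the level limit, while the kidney genes PAX2, PAX8 and LHX1 lay between 7.91 and 8.17. The 8 include the members CDH2 and VIM. Of them, 0%, 25% and 50% were called with shRNA1, shRNA2 and shRNA3, against 10.1%, 14.5% and 26.8% of all genes. NEFM rose (0.37 and 0.66) and INA fell (-0.26 and -0.49) with shRNA2 and shRNA3, and NEFL (0.40) and PAX8 (0.12) rose with shRNA3 (limma adjusted p from 0.000207 to 0.0349). Their part in the members' results was not tested. Of 14 markers of other cell types (blood, endothelium, liver, muscle, skin, fibroblast, glia and melanocyte), 11 had a value, none was called with any hairpin, and their array mean lay between 7.51 and 7.70. Of all genes, 66.5% were likewise not called with any hairpin. LUM and PECAM1 had no probe set above the level limit, whereas MYOD1 kept 7 of 8 (7.53 to 7.70 over group means) and COL1A1 104 of 121 (8.26 to 8.35). The group means of the kidney genes PAX2, PAX8 and LHX1 also lay within the span of these markers, between GFAP (up to 7.885) and COL1A1.

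Probe sets with a mean level above log2 6.53 were averaged into a gene value, and 232 of the members' 310 probe sets passed that limit. EPCAM kept 12 of 33, ZEB1 45 of 74 and CDH1 35 of 45, while KRT18 kept 19 of 19. SNAI1 rested on 4 of 5. A gene was called at an adjusted p below 0.05 in limma, and higher or lower always means the hairpin against control unless another pair is named. Because probe sets differ in brightness for the same amount of RNA, levels were compared between groups and not between genes. A level alone therefore does not show that a gene is expressed. Group means of EPCAM (7.62 to 7.80) and CLDN7 (7.72 to 7.89) lay within the span of the markers of other cell types. So did those of CDH1 (7.73 to 8.05) and SNAI1 (8.04 to 8.18). That span ran from 7.09 (CD3E) to 8.35, and COL1A1 alone (8.26 to 8.35) set its upper end. The next highest marker was GFAP, at 7.78 to 7.885. All SNAI1 group means, and those of CDH1 with shRNA2 and shRNA3 (8.04 and 8.05), lay above GFAP. In this bulk RNA, fewer cells with a transcript and less of it per cell cannot be told apart.

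Against control, 0 of the 9 measured members were called with shRNA1, where limma called 10.1% of all genes (5.99% higher, 4.07% lower), and 3, 4 and 6 had an unadjusted p below 0.05 with shRNA1, shRNA2 and shRNA3, as had 25.7%, 30% and 41.3% of all genes. With shRNA2, 2 members rose (CDH1 and ZEB1), where 14.5% of all genes were called (5.92% higher, 8.63% lower). With shRNA3, 3 rose (CDH1, CLDN7 and KRT8), where 26.8% of all genes were called (12% higher, 14.8% lower). No member was called with all 3 hairpins, as 4.68% of all genes were, and none was called lower. EPCAM, KRT18, CDH2, VIM and SNAI1 were not called with any hairpin, which was the case for 66.5% of all genes. The members' median change was 0.05, 0.04 and 0.08 with shRNA1, shRNA2 and shRNA3, against -0.01, 0.00 and 0.02 over all genes. The arrays of 4, 3 and 7 members did not overlap control, as was the case for 35.1%, 29.5% and 48.0% of all genes. Between hairpins, 1 member was called for shRNA2 against shRNA1, 2 for shRNA3 against shRNA1 and 1 for shRNA3 against shRNA2, where 1.19%, 7.10% and 3.56% of all genes were called. The 3 comparisons with control share its arrays.

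**Figure D1:**
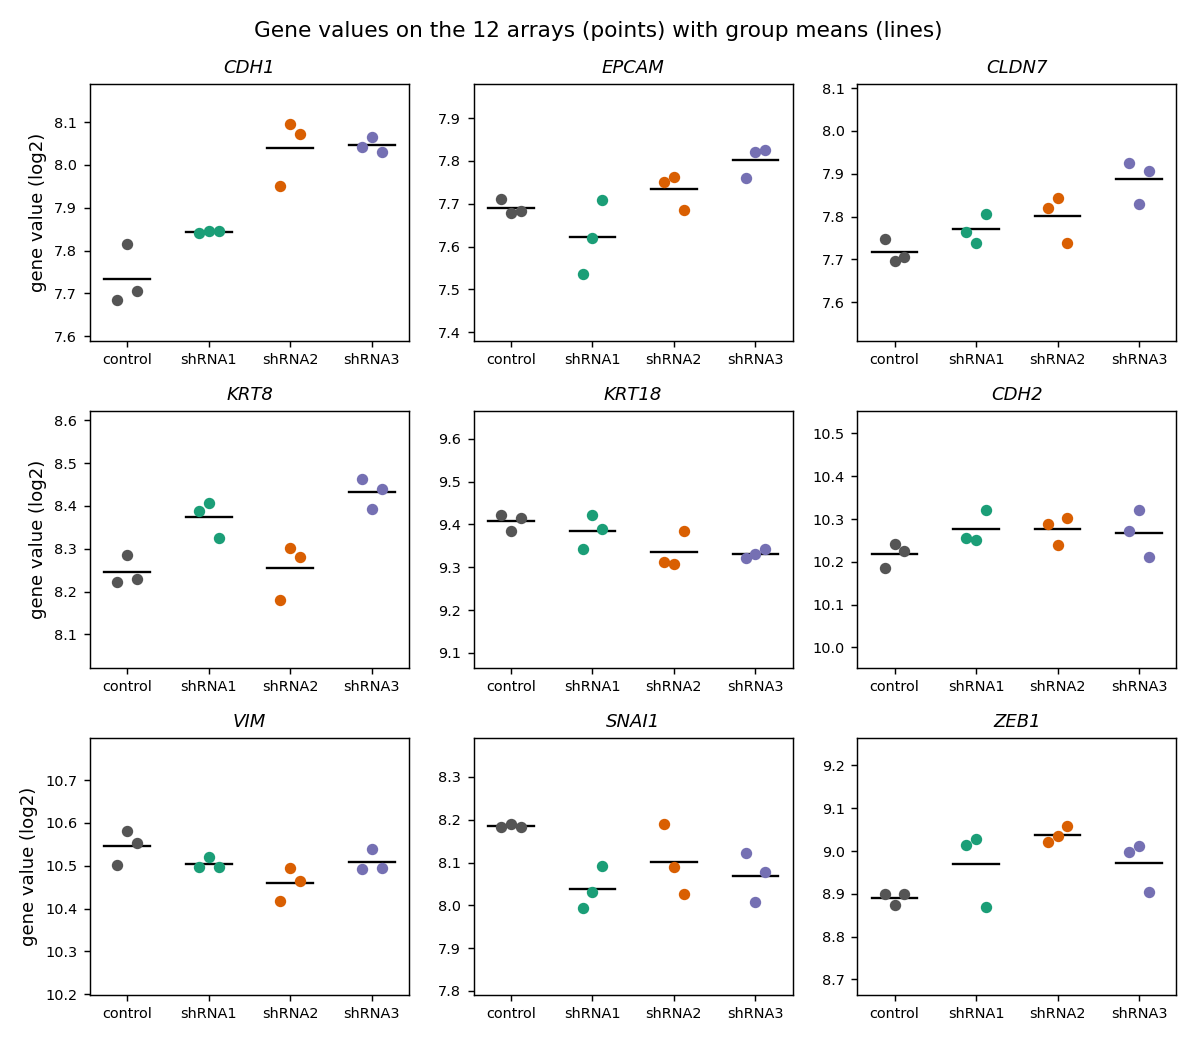
Gene values (log2 signal, vertical axes, all spanning 0.6 units) of the 9 measured members on each array (points) with group means (lines). CDH1 on the shRNA2 and shRNA3 arrays lies between 7.95 and 8.10, above all 3 control arrays (7.68 to 7.82), while CDH2 and VIM stay within a narrow range in all groups.

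CDH1 encodes E-cadherin, the calcium-dependent adhesion molecule of epithelial adherens junctions. Its gene value was 7.68, 7.82 and 7.71 in control, 7.84, 7.84 and 7.85 under shRNA1, 7.95, 8.10 and 8.07 under shRNA2, and 8.04, 8.07 and 8.03 under shRNA3. All 9 knockdown arrays lay above all 3 control arrays, and the shRNA2 and shRNA3 arrays also lay above those of shRNA1. CDH1 rose 1.24-fold with shRNA2 (log2 0.31, SE 0.04, n = 3 arrays per group; limma adjusted p = 0.000881) and 1.24-fold with shRNA3 (0.31, SE 0.04; limma adjusted p = 0.000394). With shRNA1 the change was 0.11 (SE 0.04; limma adjusted p = 0.125), which did not pass the test.

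The order of CDH1 over the groups was therefore control, shRNA1, shRNA2 and shRNA3, and it did not follow the RBFOX2 signal left, which was lowest with shRNA1. CDH1 was higher with shRNA2 than with shRNA1 (0.20, SE 0.04; limma adjusted p = 0.0411) and higher with shRNA3 than with shRNA1 (0.20, SE 0.04; limma adjusted p = 0.0160). Between shRNA3 and shRNA2 it differed by 0.01, with a 95% interval from -0.09 to 0.10. Both calls against shRNA1 depended on single arrays. The shRNA2 call was lost without shRNA1 replicates 1, 2 or 3 (adjusted p = 0.149, 0.138 and 0.143), shRNA2 replicates 2 or 3 (0.135 and 0.0778), control replicate 3 (0.0586) or shRNA3 replicates 1, 2 or 3 (0.0610, 0.0545 and 0.0615). The shRNA3 call was lost without shRNA1 replicates 1, 2 or 3 (0.0569, 0.0567 and 0.0557) or shRNA3 replicate 1 (0.0603). The calls of CDH1 against control held without each of the 12 arrays in turn.

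The CDH1 change was spread over the gene. Of its 35 kept probe sets, 28, 32 and 32 were above control with shRNA1, shRNA2 and shRNA3. Tested singly, 1, 12 and 13 were called higher and none lower, where limma called 1.25%, 2.30% and 2.57% of all single probe sets higher and 0.455%, 2.09% and 3.28% lower. Exon probe sets (20) had median changes of 0.13, 0.30 and 0.36, and junction probe sets (15) of 0.10, 0.30 and 0.28. The junction JUC16004507.hg.1 was the 1 called higher with each hairpin, at 7.79, 8.16 and 7.99 in control, 8.68, 8.43 and 8.39 under shRNA1, 8.64, 8.56 and 8.68 under shRNA2, and 8.65, 8.66 and 8.48 under shRNA3. Every knockdown array lay above the control arrays at this junction.

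Genes with array signals close to that of CDH1 shifted as a group with shRNA3. Over the 3713 genes within 0.25 log2 units of the mean CDH1 level, the median change was -0.02, 0.02 and 0.06, and 14.09% of them were called higher with shRNA3. The CDH1 change stood at the 92.1, 99.5 and 99.1 percentile of those genes with shRNA1, shRNA2 and shRNA3. Over genes of level 10 to 11, the median change with shRNA3 was -0.06. After a cyclic loess normalization, an alternative added after this shift was seen, CDH1 was still called with shRNA2 and shRNA3.

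**Figure D2:**
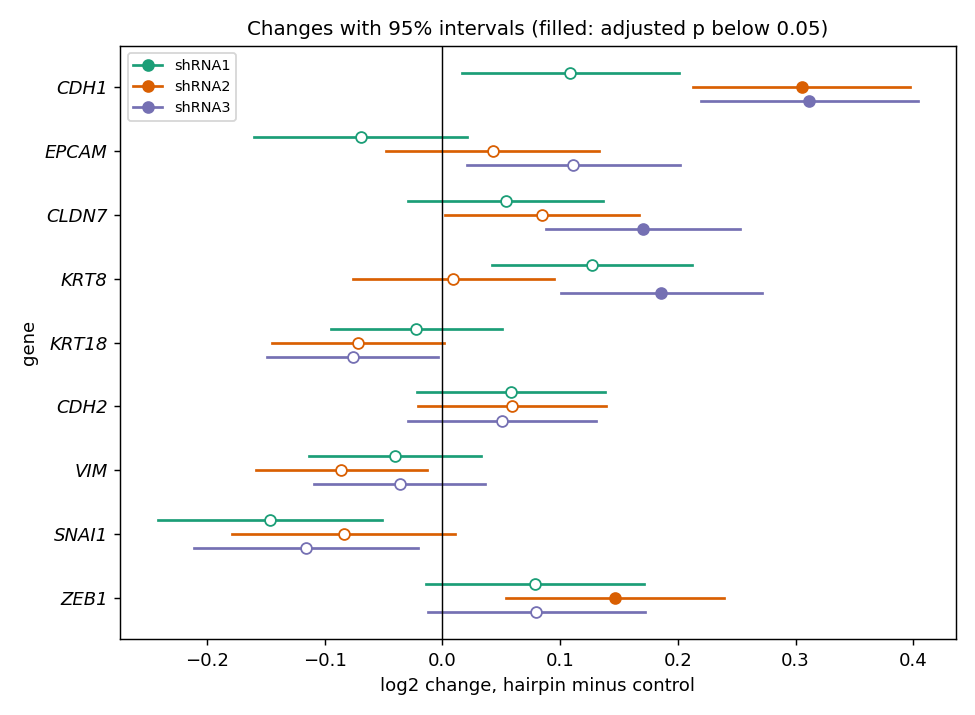
Log2 change of each member's gene value against control (horizontal axis) with its 95% interval from limma, for each hairpin; filled points have an adjusted p below 0.05. The CDH1 intervals with shRNA2 and shRNA3 lie furthest from 0, and those of CDH2 include 0 with each hairpin.

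EPCAM encodes an epithelial cell surface glycoprotein of homotypic adhesion that binds claudin-7. EPCAM read 7.71, 7.68 and 7.68 in control, 7.54, 7.62 and 7.71 under shRNA1, 7.75, 7.76 and 7.69 under shRNA2, and 7.76, 7.82 and 7.82 under shRNA3. The shRNA3 arrays all lay above control, and those of the other hairpins overlapped it. The changes of -0.07, 0.04 and 0.11 (SE 0.04) did not pass the test (limma adjusted p = 0.333, 0.540 and 0.0643). The shRNA3 change was called when shRNA1 replicate 1 or 3 was left out (adjusted p = 0.0457 and 0.0436). EPCAM was higher with shRNA3 than with shRNA1 (0.18, SE 0.04; limma adjusted p = 0.0251), a call lost without shRNA1 replicate 1 (0.0989) or 2 (0.0775) and without shRNA3 replicate 1 (0.0516) or 3 (0.0940). No single EPCAM probe set was called against control.

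CLDN7, whose promoter is shown above, encodes claudin-7, a membrane protein of epithelial tight junctions and lateral membranes. It read 7.75, 7.70 and 7.71 in control, 7.76, 7.74 and 7.81 under shRNA1, 7.82, 7.84 and 7.74 under shRNA2, and 7.92, 7.83 and 7.91 under shRNA3. Only the shRNA3 arrays were clear of the control range, and all these levels lay within the span of the markers of other cell types. CLDN7 rose 1.13-fold with shRNA3 (0.17, SE 0.04; limma adjusted p = 0.00647), and its changes of 0.05 and 0.08 with shRNA1 and shRNA2 did not pass the test (adjusted p = 0.425 and 0.155). Over genes of like level the median change with shRNA3 was 0.06, and 13.45% were called higher. The shRNA3 call held without each array in turn and was lost when a gene's value was the median of its probe sets (0.10; adjusted p = 0.354).

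KRT8 and KRT18 encode keratin 8 and keratin 18, which pair with each other in the filaments of simple epithelia. Both have many processed pseudogenes, and signal from near-identical copies was not set apart. The kept KRT8 exon probe set PSR08005831.hg.1 carries 08 in its identifier, while KRT8 lies on chromosome 12 and its other identifiers carry 12. That probe set was averaged into the gene value, and its origin was not tested. KRT8 read 8.22, 8.29 and 8.23 in control, 8.39, 8.41 and 8.33 under shRNA1, 8.18, 8.30 and 8.28 under shRNA2, and 8.46, 8.39 and 8.44 under shRNA3. It lay above control on all shRNA1 and shRNA3 arrays and overlapped control with shRNA2. KRT8 rose 1.14-fold with shRNA3 (0.19, SE 0.04; limma adjusted p = 0.00488), and the call held without each array in turn. With shRNA1 the change was 0.13 (adjusted p = 0.0577), which passed the test when shRNA2 replicate 1 or 2 was left out (0.0300 and 0.0483), and with shRNA2 it was 0.01 (adjusted p = 0.910).

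KRT8 was higher with shRNA3 than with shRNA2 (0.18, SE 0.04; limma adjusted p = 0.0249), a call lost without shRNA2 replicate 1 (0.0813) or shRNA3 replicates 1 or 3 (0.109 and 0.0872). Its partner KRT18 read 9.42, 9.38 and 9.42 in control, 9.34, 9.42 and 9.39 under shRNA1, 9.31, 9.31 and 9.39 under shRNA2, and 9.32, 9.33 and 9.34 under shRNA3. Its shRNA3 arrays lay just below control. The KRT18 changes of -0.02, -0.07 and -0.08 (SE 0.03) did not pass the test (limma adjusted p = 0.738, 0.173 and 0.107). None of the 19 KRT18 probe sets was called singly, while 2, 0 and 5 of 28 KRT8 probe sets were called higher with shRNA1, shRNA2 and shRNA3.

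CDH2 encodes N-cadherin, the cadherin of neural and mesenchymal cells. Its gene value was 10.18, 10.24 and 10.23 in control, 10.26, 10.25 and 10.32 under shRNA1, 10.29, 10.24 and 10.30 under shRNA2, and 10.27, 10.32 and 10.21 under shRNA3. All 12 arrays lay between 10.18 and 10.32. The shRNA1 arrays were just above control, and the shRNA2 and shRNA3 arrays overlapped it. The changes were 0.06, 0.06 and 0.05 (SE 0.04; limma adjusted p = 0.360, 0.314 and 0.312). Their 95% intervals ran from -0.02 to 0.14 with shRNA1 and shRNA2 and from -0.03 to 0.13 with shRNA3. Of 38 CDH2 probe sets, 1 was called higher with shRNA2 and none with the others.

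VIM encodes vimentin, the intermediate filament protein of mesenchymal cells. It read 10.50, 10.58 and 10.55 in control, 10.50, 10.52 and 10.50 under shRNA1, 10.42, 10.50 and 10.47 under shRNA2, and 10.49, 10.54 and 10.49 under shRNA3. The shRNA2 arrays lay below control and the others overlapped it. VIM changed by -0.04, -0.09 and -0.04 (SE 0.03), none of which passed the test (limma adjusted p = 0.508, 0.105 and 0.427). A single VIM junction, JUC10000724.hg.1, was called lower with shRNA1 (-0.35; adjusted p = 0.0345) and shRNA2 (-0.39; adjusted p = 0.0165).

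SNAI1 encodes Snail, a zinc finger repressor of E-cadherin. Its gene value was 8.18, 8.19 and 8.18 in control, 7.99, 8.03 and 8.09 under shRNA1, 8.19, 8.09 and 8.03 under shRNA2, and 8.12, 8.01 and 8.08 under shRNA3. All shRNA1 and shRNA3 arrays lay below control, and the shRNA2 arrays overlapped it. The changes were -0.15, -0.08 and -0.12 (SE 0.04), and none passed the test (limma adjusted p = 0.0504, 0.221 and 0.0654). Over genes of like level the median change with shRNA3 was 0.06, opposite in sign, and the SNAI1 change stood at the 8.0 percentile of them. SNAI1 was near the threshold. It was called lower with all 3 hairpins without shRNA2 replicate 1 (adjusted p = 0.0232, 0.0491 and 0.0351), and with shRNA1 and shRNA3 without shRNA2 replicate 3 (0.0334 and 0.0417).

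ZEB1 encodes the other E-box repressor on the list. It read 8.90, 8.87 and 8.90 in control, 9.01, 9.03 and 8.87 under shRNA1, 9.02, 9.03 and 9.06 under shRNA2, and 9.00, 9.01 and 8.90 under shRNA3. The shRNA2 and shRNA3 arrays lay above control, the latter narrowly, and 1 shRNA1 array lay below it. ZEB1 rose 1.11-fold with shRNA2 (0.15, SE 0.04; limma adjusted p = 0.0356), while the changes of 0.08 with shRNA1 and 0.08 with shRNA3 did not pass the test (adjusted p = 0.274 and 0.174). The call was lost without any of the 3 control arrays (0.0821, 0.0868 and 0.0857 for replicates 1, 2 and 3) and without shRNA2 replicate 2 (0.0915) or 3 (0.0770). CDH1 and ZEB1, a gene and its repressor by background, were thus both called higher with shRNA2.

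**Figure D3:**
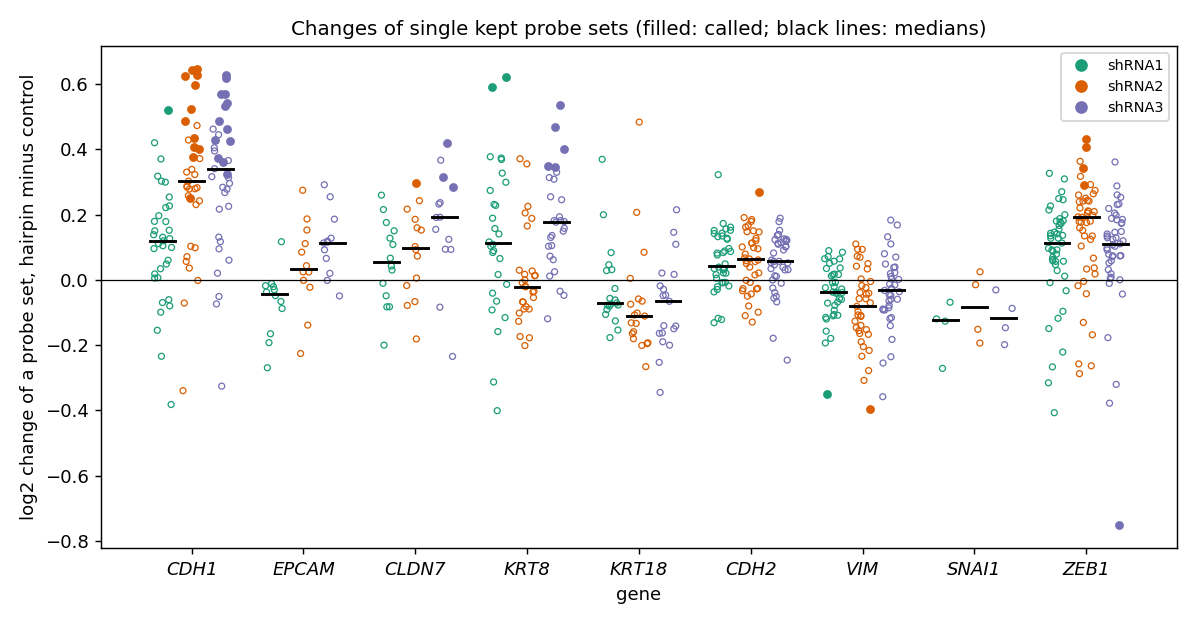
Log2 change against control (vertical axis) of every kept probe set of each member, by hairpin, with black lines at the medians; filled points were called singly by limma. CDH1 holds the most filled points with shRNA2 and shRNA3 (12 and 13 of 35), and EPCAM, KRT18 and SNAI1 hold none.

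CTNND1 encodes p120-catenin, which binds the cytoplasmic tail of cadherins and keeps them at the membrane. The platform annotation gave 89 probe sets to CTNND1 together with C11orf31, and 69 of them passed the level limit. They could not be assigned to either gene. Tested singly, 1 was called higher and 1 lower with shRNA1, 2 higher and 4 lower with shRNA2, and 0 higher and 3 lower with shRNA3. Of all single probe sets, limma called 1.25%, 2.30% and 2.57% higher and 0.455%, 2.09% and 3.28% lower. The median change of the 69 was -0.09, -0.14 and -0.11, and single changes with shRNA1 ran from -1.05 to 0.78.

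Exon use was compared through the splicing index, the log2 value of a probe set minus the mean of its gene's other kept probe sets on the same array. The threshold was an adjusted p below 0.05 together with a difference of 1.5-fold or more. Of the members' 232 probe sets, 0, 0 and 1 were called with shRNA1, shRNA2 and shRNA3, and none with all 3. Over all 417377 probe sets tested, limma called 0.129%, 0.220% and 0.195%, or 0.397% with any hairpin and 0.0386% with all 3. An unadjusted p below 0.05 was reached by 28, 40 and 32 of the 232 (12.07%, 17.24% and 13.79%), against 13.19%, 18.65% and 15.93% of all probe sets. The members' shares by unadjusted p were slightly below those of the array with each hairpin. They cover 145 exon and 87 junction probe sets and do not count altered exons. No member index was called between hairpins, where limma called 0.0177%, 0.00311% and 0.0189% of all probe sets and 17, 17 and 20 of the members' (7.33%, 7.33% and 8.62%) had an unadjusted p below 0.05, against 6.62%, 11.76% and 13.73% of all probe sets, for shRNA2 against shRNA1, shRNA3 against shRNA1 and shRNA3 against shRNA2.

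The called probe set was the ZEB1 exon PSR10002519.hg.1. Its level was 7.56, 7.58 and 7.95 in control, 7.34, 7.06 and 7.47 under shRNA1, 7.58, 7.36 and 7.65 under shRNA2, and 6.67, 7.24 and 6.92 under shRNA3. The shRNA1 and shRNA3 arrays lay below all control arrays, and the shRNA2 arrays overlapped them. Relative to the rest of ZEB1 it was 1.80-fold lower with shRNA3 (index change -0.85, SE 0.17; limma adjusted p = 0.0450), and the index changes of -0.50 and -0.32 with shRNA1 and shRNA2 did not pass the test (adjusted p = 0.238 and 0.331). The call was lost without 8 of the 12 arrays. They were control replicates 1, 2 and 3 (adjusted p = 0.0871, 0.0864 and 0.144), shRNA1 replicate 1 (0.0636), shRNA2 replicates 1 and 3 (0.0520 and 0.0530) and shRNA3 replicates 1 and 3 (0.155 and 0.0976). With the replicate number as a block its adjusted p was 0.0524.

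Other probe sets stood out by size without passing the test. The CDH1 junction JUC16004523.hg.1 read 8.31, 8.23 and 8.27 in control, 8.02, 7.55 and 8.10 under shRNA1, 8.03, 7.75 and 8.02 under shRNA2, and 7.71, 7.98 and 8.14 under shRNA3. It was lower than control on every knockdown array while most of CDH1 was higher, and its index changed by -0.51, -0.66 and -0.66 (SE 0.16; limma adjusted p = 0.208, 0.0668 and 0.0809). At the other end of CDH1, the junction JUC16004507.hg.1 described above had index changes of 0.42, 0.35 and 0.31 (adjusted p = 0.0945, 0.0892 and 0.140).

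In KRT8, the junction JUC12011253.hg.1 changed in index by 0.51, 0.19 and 0.36 (SE 0.09; limma adjusted p = 0.0416, 0.299 and 0.0888), a 1.43-fold difference with shRNA1 that stayed under the fold limit. Its lowest, JUC12011250.hg.1, changed by -0.55, -0.19 and -0.32 (SE 0.12; adjusted p = 0.0873, 0.415 and 0.225). In KRT18, the junction JUC12002985.hg.1 changed by 0.41, 0.59 and 0.05 (SE 0.14; adjusted p = 0.237, 0.0655 and 0.900). Both keratins thus had junctions further from their gene than those of CDH2 and VIM.

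The VIM junction JUC10000724.hg.1 changed in index by -0.32, -0.32 and -0.15 (SE 0.07; limma adjusted p = 0.100, 0.0587 and 0.341). CDH2 indices lay between -0.30 and 0.27 over all 3 hairpins, those of EPCAM between -0.29 and 0.25 and those of SNAI1 between -0.17 and 0.14. The lowest CLDN7 index was that of the exon PSR17014505.hg.1 (-0.03, -0.29 and -0.44), and the highest that of the junction JUC17008292.hg.1 (0.10, 0.23 and 0.27). The highest ZEB1 index was that of the junction JUC10001359.hg.1 (0.25, 0.27 and 0.29). No index outside the ZEB1 exon was called.

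**Figure D4:**
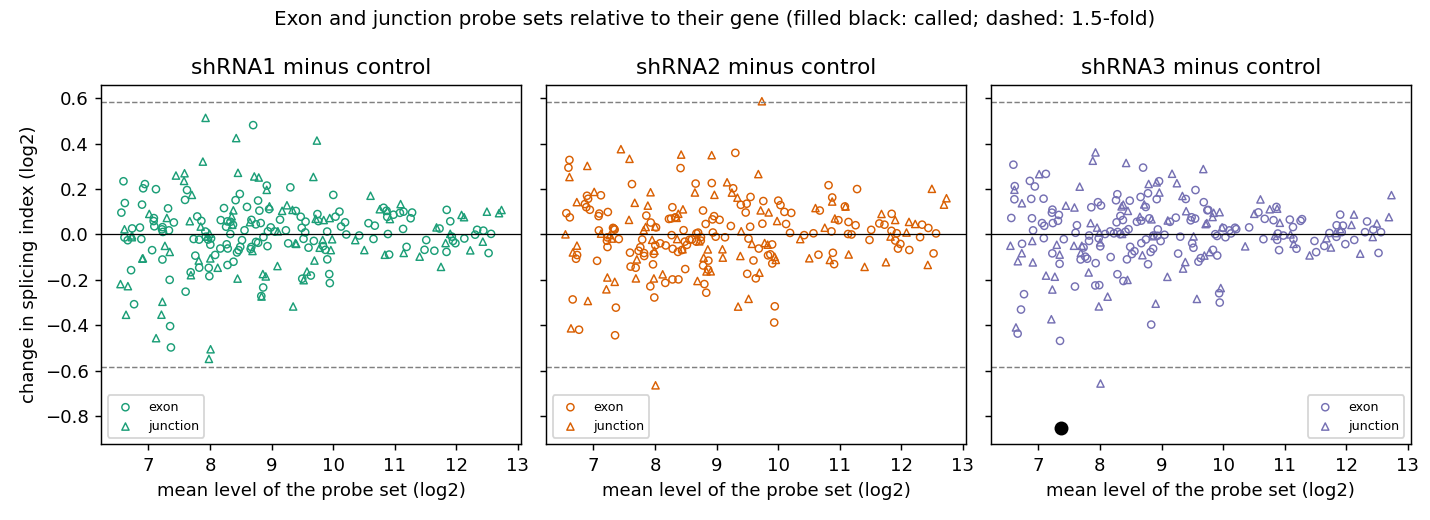
Change in splicing index against control (vertical axis, log2) of the members' 232 kept probe sets by mean probe set level (horizontal axis, log2), for each hairpin; dashed lines mark 1.5-fold. The 1 filled black point is the ZEB1 exon with shRNA3 at -0.85, and the junction near -0.66 with shRNA2 and shRNA3 belongs to CDH1.

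Lists of related genes were read beside the members. Of 22 measured genes of epithelial junctions and polarity, 1 rose and 1 fell with shRNA1, 2 rose and 1 fell with shRNA2, and 4 rose and 3 fell with shRNA3, with medians of 0.00, 0.02 and 0.07. With shRNA3 this was 18.2% higher and 13.6% lower, against 12% and 14.8% of all genes. PATJ, a scaffold of the Crumbs polarity complex, read 8.56, 8.66 and 8.67 in control, 8.95, 8.91 and 8.83 under shRNA1, 8.71, 8.93 and 8.94 under shRNA2, and 8.88, 8.94 and 8.89 under shRNA3. MARVELD2, or tricellulin, which seals junctions where 3 cells meet, read 8.54, 8.52 and 8.55 in control, 8.35, 8.28 and 8.38 under shRNA1, 8.44, 8.28 and 8.34 under shRNA2, and 8.20, 8.26 and 8.22 under shRNA3. Neither gene's knockdown arrays overlapped its control arrays.

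PATJ rose with all 3 hairpins (0.26, 0.23 and 0.27, SE 0.06; limma adjusted p = 0.0113, 0.0163 and 0.00415) and MARVELD2 fell with all 3 (-0.20, -0.18 and -0.31, SE 0.04; adjusted p = 0.0110, 0.0131 and 0.000400). The PATJ call with shRNA1 was lost without control replicate 1 (0.0551) or shRNA1 replicates 1 or 2 (0.0571 and 0.0523), and that with shRNA2 without control replicate 1 (0.0733) or shRNA2 replicates 2 or 3 (0.0771 and 0.0518). The MARVELD2 call with shRNA1 was lost without shRNA1 replicate 2 (0.0684), and that with shRNA2 without control replicate 3 (0.0511) or shRNA2 replicate 2 (0.0619). The desmosomal plaque gene DSP rose with shRNA3 (0.13) and the tight junction gene CLDN1 fell with it (-0.14). Neither was called with shRNA1 or shRNA2.

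Of 11 measured keratins, 0 were called with shRNA1, 1 fell with shRNA2 (KRT10, -0.19) and 2 rose with shRNA3 (KRT8 and KRT19, the latter by 0.12). Their medians were -0.03, 0.01 and 0.09. Of 19 epithelial regulators and surface protease genes, 0, 1 and 4 rose and none fell, with medians of 0.01, 0.03 and 0.08. The receptor gene ERBB3 changed by 0.16, 0.18 and 0.19 and was called with shRNA2 and shRNA3. The protease inhibitor gene SPINT2 (0.17) and the transcription factor genes GRHL2 (0.18) and KLF4 (0.14) rose with shRNA3. The GRHL2 call was lost with the median of its probe sets (0.02; adjusted p = 0.878) and without the level filter (0.05; 0.386). Over the 12 arrays, GRHL2 read 7.22 to 7.48, ERBB3 7.32 to 7.68 and KRT19 7.54 to 7.74. These levels lay within the span of the markers of other cell types. With shRNA3, 18.2% of the keratins and 21.1% of the regulators were called, all of them higher. Over all genes 12% were called higher and 14.8% lower, and over those of level 7 to 8.5, 14.6% and 6.4%.

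Of 27 measured mesenchymal filament, surface and matrix genes, 2, 2 and 6 rose and 0, 1 and 2 fell, with medians of 0.00, 0.02 and 0.07. With shRNA3, 22.2% were called higher and 7.4% lower. LOX, SPARC, VCAN and FN1, picked by calls and size of mean change, all rose, and the genes called lower are not among them. On the same list, ITGB1 read 10.04, 9.97 and 9.93 in control and 9.77, 9.77 and 9.69 under shRNA3. ACTA2 read 8.66, 8.80 and 8.72 in control, 8.44, 8.63 and 8.38 under shRNA2, and 8.83, 8.83 and 8.83 under shRNA3. LOX, a collagen cross-linking enzyme, read 7.91, 8.12 and 8.07 in control, 8.37, 8.44 and 8.39 under shRNA1, 8.24, 8.40 and 8.23 under shRNA2, and 8.58, 8.60 and 8.48 under shRNA3. All knockdown arrays lay above control, and those of shRNA3 were the highest. LOX rose with all 3 hairpins (0.37, 0.26 and 0.52, SE 0.06; limma adjusted p = 0.00196, 0.0100 and 9.81e-05), and the shRNA2 call was lost without shRNA2 replicate 2 (0.0507). With the median of its probe sets in place of the mean, LOX changed by 0.18 with shRNA1 (adjusted p = 0.118) and 0.06 with shRNA2 (0.607), neither of them called, and by 0.31 with shRNA3, which was still called.

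The matricellular gene SPARC rose with shRNA1 (0.28) and shRNA3 (0.27), the proteoglycan gene VCAN with shRNA2 (0.18) and shRNA3 (0.31), and fibronectin, FN1, with shRNA3 (0.20). Genes of both identities were thus among those called higher with shRNA3. Of the measured genes, 14 of 22 on the epithelial junction list and 18 of 27 on the mesenchymal list had levels between 7 and 8.5, where the median change of all 8038 genes with shRNA3 was 0.06 and 14.6% were called higher and 6.4% lower. The list medians of 0.07 lay near that shift. Of 12 measured EMT transcription factor genes, 0 were called with shRNA1, 1 rose with shRNA2 (the member ZEB1) and 0 were called with shRNA3. These were 0%, 8.3% and 0% of the list, against 10.1%, 14.5% and 26.8% of all genes. The list medians were -0.04, 0.00 and 0.04.

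The cadherin-catenin complex links cadherins to actin. Of 15 measured genes, 1, 3 and 5 rose and 0, 1 and 2 fell, with medians of 0.04, 0.04 and 0.06. These were 6.7%, 26.7% and 46.7% of the list, against 10.1%, 14.5% and 26.8% of all genes. P-cadherin, CDH3, changed by 0.10, 0.19 and 0.22, and the actin linker vinculin, VCL, by 0.05, 0.15 and 0.17, both called with shRNA2 and shRNA3. Alpha-catenin, CTNNA1, changed by 0.11, 0.10 and 0.09 and was called with shRNA1 and shRNA3, and the adhesion gene NECTIN1 fell with shRNA2 (-0.10). Of 30 calls among the 18 list genes named here, 10 held without each array in turn. They were those of SPARC and LOX with shRNA1 and shRNA3 and, with shRNA3, of MARVELD2, PATJ, GRHL2, SPINT2, VCAN and CDH3, while the other 20, among them all calls of KRT10, KRT19, CLDN1, DSP, ERBB3, KLF4, FN1, VCL, CTNNA1 and NECTIN1, were lost without at least 1 array. Of the same 30 calls, 19 were lost under at least 1 of the other settings, and 16 of these when a gene's value was the median of its probe sets. The CLDN1 change with shRNA3 was -0.01 with the filter at the 60th percentile (adjusted p = 0.951), and without the filter the CTNNA1 changes were 0.05 with shRNA1 and 0.04 with shRNA3 (0.418 and 0.398) and that of KRT10 with shRNA2 was -0.09 (0.384). The calls of SPARC with shRNA1 and shRNA3, and of MARVELD2, PATJ, SPINT2, LOX, VCAN and CDH3 with shRNA3, 8 in all, held without each array and under every other setting. CDH3 read 7.24 to 7.64 over the 12 arrays, within the span of the markers of other cell types.

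**Figure D5:**
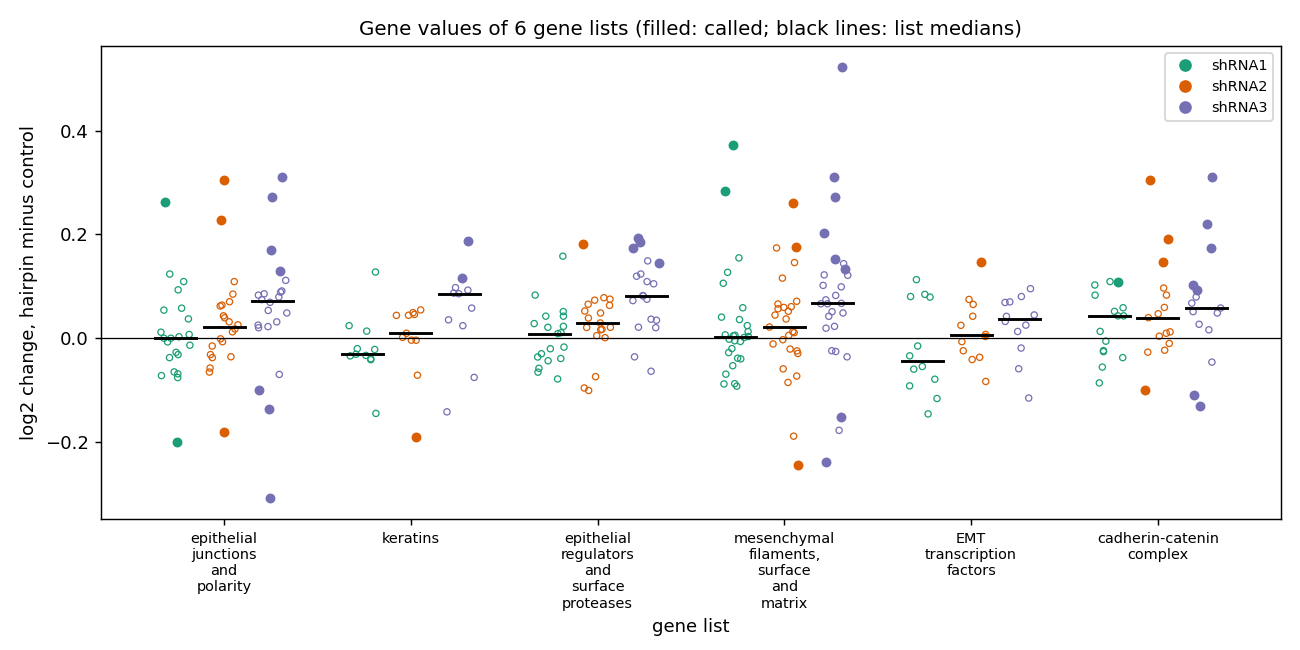
Log2 change against control (vertical axis) of the measured genes of 6 lists, by hairpin, with black lines at the list medians; filled points were called by limma. LOX is the highest point, at 0.52 with shRNA3, and MARVELD2 the lowest, at -0.31 with shRNA3.

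The members with the largest mean change over the 3 hairpins were CDH1 and SNAI1. By the root mean square difference of mean-centred values over the 12 arrays, the genes most like CDH1 were TMEM150C (0.0461), PLAG1 (0.0468) and GALNT16 (0.0481), where CDH1 itself varied by 0.140 around its mean. Those most like SNAI1 were WT1 (0.0262), SLC25A48 (0.0316) and CCDC85C (0.0319), where SNAI1 varied by 0.0712. TMEM150C changed by 0.17, 0.30 and 0.33, and WT1, the Wilms tumor transcription factor gene, by -0.16, -0.08 and -0.14. These distances describe likeness over arrays that share the same groups and carry no test.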

How the data were processed

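The deposited values are log2 signals that the authors made, per the submitters' processing notes, in Affymetrix Expression Console with RMA. The sources used here give no versions, settings or genome build. The table held 914585 rows, with 1530 controls left out. Of the rest, 672085 probe sets had 1 gene symbol in the platform annotation, 39483 had several and 201487 had none. Of the array's symbols, 19540 were current, 2474 were updated through RefSeq gene names and 71 stayed as listed. Within a gene, 26130 identical copies were counted once.

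Probe sets with a mean over the 12 arrays above the 40th percentile (log2 6.53) were kept. Genes needed at least 3 kept probe sets for a gene value (16648 genes) and at least 4 for a splicing index (417377 probe sets in 15891 genes). Single kept probe sets numbered 522988. All 4 groups were fitted together with limma 3.58.1 (lmFit and eBayes, two-sided, 8 residual degrees of freedom) in R 4.3.3 with data.table (version 1.17.8), and p-values were adjusted by Benjamini-Hochberg over all features of a comparison. Errors are standard errors (SE) of the fit and intervals are 95%. The steps were tested on simulated data in which few features changed. Of gene changes of log2 0.15, 0.3 and 0.6 added to shRNA3, 26.9%, 82.1% and 98.5% were recovered, and of index changes of 0.6, 52.2%. A small change that did not pass the test is therefore not shown to be absent. Same-numbered control and shRNA2 arrays deviated together (r of 0.202, 0.432 and 0.264 across genes), but no other pair of groups did in all 3 numbers, and the labels give no shared culture or day.

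The members and gene lists were chosen with earlier results of these data known. Named genes were all members, RBFOX2, each member's highest and lowest probe set by mean index change, and from each list the genes called with all 3 hairpins, filled up to 4 by size among those called. Probe sets called singly and named above were chosen after their values were seen. The labels do not tell whether replicates came from separate cultures, and p-values then measure array spread that may be technical. Precision is limited by having 3 arrays a group.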

Additional observations from a re-analysis of the deposited data

Results flagged for a closer look

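Several genes had effects that differed between hairpins by limma's test of the difference itself. Among the members these were CDH1 (shRNA2 minus shRNA1 0.20, adjusted p = 0.0411; shRNA3 minus shRNA1 0.20, adjusted p = 0.0160), EPCAM (0.18 higher with shRNA3 than with shRNA1, adjusted p = 0.0251) and KRT8 (0.18 higher with shRNA3 than with shRNA2, adjusted p = 0.0249). Where limma called 1.19% of all genes between shRNA2 and shRNA1, 7.10% between shRNA3 and shRNA1 and 3.56% between shRNA3 and shRNA2, 1, 2 and 1 of the 9 members were called. The CDH1 call of shRNA2 against shRNA1 held in 3 of 12 fits that left out 1 array and under 5 of 10 other settings. The CDH1 call of shRNA3 against shRNA1 held in 8 and 8, that of EPCAM in 8 and 7, and that of KRT8 in 9 and 8. Of the listed genes, the desmosomal gene DSP was 0.13 higher with shRNA3 than with shRNA1 (adjusted p = 0.0448) and the epithelial transcription factor gene GRHL2 0.16 higher (adjusted p = 0.0367). LOX was 0.26 higher with shRNA3 than with shRNA2 (adjusted p = 0.0231). The DSP call was lost in 8 of 12 fits that left out 1 array (control replicates 2 and 3 and each shRNA1 and shRNA3 array; adjusted p from 0.0597 to 0.146) and under 3 of 10 other settings. That of GRHL2 was lost in 6 of 12 (control replicate 3, each shRNA1 array and shRNA3 replicates 1 and 3; 0.0511 to 0.151) and under 5 of 9 other settings, with a difference of 0.06 without the level filter (0.321). That of LOX was lost in 4 of 12 (shRNA2 replicates 1 and 3 and shRNA3 replicates 1 and 2; 0.0740 to 0.0940) and under 2 of 10 other settings. Groups of 3 arrays were not screened for outlying arrays.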

How the results depend on the processing

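No called result reversed its direction under any alternative, and the CDH1 calls against control were lost only with shRNA2 when a gene's value was the median of its probe sets (0.22; adjusted p = 0.0596). The other member counts moved as follows, always counting called members of 9 or called index probe sets of 232. Without the level filter, 1 member was called with shRNA1 (CLDN7), 1 with shRNA2, 0 between shRNA2 and shRNA1, 0 between shRNA3 and shRNA1, and 0 indices with shRNA3. With the filter at the 60th percentile, 1 was called with shRNA1 (KRT8), 0 between shRNA2 and shRNA1, and 1, 2 and 0 indices with shRNA1, shRNA2 and shRNA3. With exon probe sets only, 2 were called with shRNA1 (KRT8 and SNAI1) and 0 between shRNA2 and shRNA1. With only the 2 groups compared in the fit, 2, 1 and 5 were called with shRNA1, shRNA2 and shRNA3, 0 between shRNA2 and each other hairpin, which covers both of those comparisons, and 0 indices with shRNA3. With the median, 0 were called with shRNA2, 0 in each comparison between hairpins, and 0 indices with shRNA3. An intensity trend gave 1 member with shRNA1 (SNAI1) and 2 and 2 indices with shRNA2 and shRNA3, a repeated quantile normalization gave 1 with shRNA1 (SNAI1), the added cyclic loess gave 2 (KRT8 and SNAI1), and dropping the fold threshold gave 1 index with shRNA1. The cause was not tested in any of these. With the replicate number as a block, 0 indices were called with shRNA3, and the block moved no count of called members. It ended the calls of CTNNA1 with shRNA1 and shRNA3 (adjusted p = 0.0535 and 0.0506), KRT19 with shRNA3 (0.0518), NECTIN1 with shRNA2 (0.0535) and DSP between shRNA3 and shRNA1 (0.0593), all of them listed genes. Leaving out 1 array at a time gave 0 to 2 members with shRNA1, 1 to 3 with shRNA2, 3 to 4 with shRNA3, 0 to 1 with all 3 hairpins (SNAI1), 0 to 1, 0 to 3 and 0 to 1 between hairpins, and 0 to 1 indices with shRNA3. Keeping identical copies moved no member count beyond 1.5 times. The counts over all genes behind the percentages moved more: the main 1675, 2422 and 4468 with shRNA1, shRNA2 and shRNA3 ran from 493 to 2201, 1071 to 3323 and 2186 to 5184 when 1 array was left out, and from 643 to 2378, 973 to 2692 and 2239 to 4915 under the other settings. With all 3 hairpins the main 779 ran from 242 to 1233 and from 294 to 894. Between hairpins the main 198, 1182 and 593 ran from 83 to 200, 291 to 2508 and 245 to 1485 without 1 array, and from 79 to 223, 292 to 3347 and 170 to 750 under the other settings. Signal over background limits what was measured: EPCAM rested on 12 of 33 probe sets above the level limit.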
